A study of Homo sapiens with 42 samples.

Results

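The comparison set chromatin opened in MCF10A cells after 48 h of oncostatin M (OSM) against that after 24 h, to tell openings that lasted from openings that had gone again. No site passed the test of detection adjusted for peak number, a test that could pass no single site with these 6 libraries. With an equal number of the strongest peaks kept per library, 266 sites ranked among them in all libraries at 24 h and none at 48 h. For 125 sites the reverse held. A site outside the kept peaks may still have a weaker peak. The few sites that opened under OSM lay mostly away from promoters and often held the letters that STAT factors bind. AP-1 letters were less frequent among the sites detected at 48 h than at 24 h under both OSM and PBS. PBS was read on sites merged from the OSM libraries. This difference is given without a test, and the part of peak number in it was not tested. The members of the comparison were 6 of the 42 libraries of the series, 3 per time, chosen by their titles alone. MCF10A is an established, non-tumorigenic human mammary epithelial line. Cells were seeded on collagen-1, held in medium with horse serum, hydrocortisone and cholera toxin but no EGF and no insulin, and then given OSM at 10 ng/ml for 24 h or 48 h. PBS is the vehicle, given for the same times in the same medium (3 libraries per time), and the 4 CTRL libraries were taken at 0 h. The assay for transposase-accessible chromatin (ATAC-seq) was run on bulk cells, so fewer cells with an open site and a less open site in every cell cannot be told apart.

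OSM is a cytokine of the interleukin 6 family. It binds OSMR paired with IL6ST, the shared receptor chain gp130, and the JAK kinases held by these receptors phosphorylate STAT3, which enters the nucleus and binds palindromic sites in DNA. SOCS3, a target of STAT3, feeds back on the receptor complex. AP-1 factors, made of FOS and JUN proteins, bind many of the distal enhancers of epithelial cells.

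DNA from some of the openings is shown first. An opening by 24 h was a merged site with a peak in all 3 OSM libraries at 24 h and in no CTRL library and no PBS library at 24 h, and 55 of the 29225 sites with a peak in all 3 met this rule (0.188%). It was called lasting with a peak in at least 2 of the 3 libraries at 48 h and transient with none. In the first 3 sequences, from lasting openings, the capitals are the STAT letters (TTCNNNGAA). In the last 2, from transient openings, they are the AP-1 letters (TGAGTCA or its reverse complement). The letters to mark were chosen by class, and neither kind is particular to a class. Within 100 bp of the summit, AP-1 letters stood in 3 of 15 lasting and 2 of 9 transient openings. STAT letters stood in 8 of the 15 and 3 of the 9. The DPYSL3 sequence also holds the AP-1 letters, not marked here, and the SELPLG opening holds them outside the stretch shown. Each sequence runs 50 bases to either side of the summit, on the plus strand of GRCh38.
SELPLG, lasting, chr12:108628543-108628643: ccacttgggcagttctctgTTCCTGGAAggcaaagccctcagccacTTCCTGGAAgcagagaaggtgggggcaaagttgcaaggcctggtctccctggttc
DPYSL3, lasting, chr5:147619468-147619568: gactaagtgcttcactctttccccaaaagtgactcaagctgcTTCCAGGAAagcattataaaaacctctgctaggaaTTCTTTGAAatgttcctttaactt
SIM1, lasting, chr6:100231072-100231172: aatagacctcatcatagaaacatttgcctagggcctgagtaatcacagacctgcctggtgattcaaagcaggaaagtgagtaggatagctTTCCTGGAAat
IGDCC4, transient, chr15:65409449-65409549: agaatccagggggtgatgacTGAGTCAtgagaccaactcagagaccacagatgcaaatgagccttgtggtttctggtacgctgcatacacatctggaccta
PSMD6, transient, chr3:64056778-64056878: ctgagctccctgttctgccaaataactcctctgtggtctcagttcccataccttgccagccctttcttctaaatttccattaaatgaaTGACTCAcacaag

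The names are those of the nearest protein-coding start in GENCODE release 44 and do not say which gene a site acts on. The SELPLG opening held 2 copies of the STAT letters and lay in an intron of SELPLG, 3485 bp from its start. The DPYSL3 opening lay in an intron of JAKMIP2, 109450 bp from the DPYSL3 start.

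The 6 libraries differed in how many peaks they held, and this set what could be compared. On the primary chromosomes the libraries at 24 h listed 107141, 50094 and 41799 peak summits (A, B and C), and those at 48 h listed 75424, 11188 and 35021. The ranges overlapped, and log10 peak number averaged 4.78 ± 0.22 (SD, n = 3) after 24 h and 4.49 ± 0.42 after 48 h (two-sided exact permutation test, p = 0.4, adjusted over 4 library measures 0.8). With 3 against 3 libraries this test cannot go below 0.1. The files hold no read counts, so depth is unknown. Fold enrichment and the deposited -log10 p were solved together for pileup and local background. The lowest background so inferred in each library was 1.05 to 1.36 fragments per base. Library B at 48 h had the highest such value, 1.36, and the fewest peaks. The CTRL libraries listed 106456 to 111262 summits and the PBS libraries 15670 to 102160. The 6 libraries were run on 5 lanes, and only 1 lane held both times, with 1 library of each, so lane and time could not be separated within lanes.

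**Figure D1:**
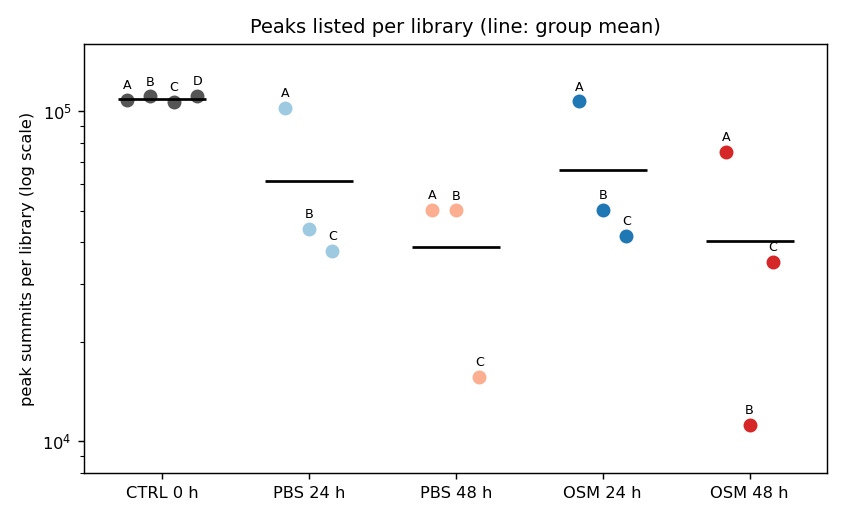
Peak summits per library on a log axis, for CTRL at 0 h and for PBS and OSM at 24 h and 48 h; letters are replicates and lines are group means. The OSM libraries at 48 h run from 11188 to 75424 and overlap those at 24 h, which run from 41799 to 107141.

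The labelled cell type was checked by peaks within 1000 bp of the starts of marker genes. Of 8 basal mammary epithelial markers, 7, 5 and 5 had such a peak at 24 h and 7, 0 and 6 at 48 h. TP63, a basal transcription factor, had none in any of the 6 libraries at these starts. Of 6 luminal markers, 3, 3 and 2 had one at 24 h and 3, 0 and 3 at 48 h. None of 7 fibroblast markers had one in any library, and endothelial and leukocyte markers had at most 1 each. Library B at 48 h thus lacked promoter peaks at every basal marker, and counts of sites and openings are also given without it.

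Merging the peaks of the 6 libraries gave 96912 sites, of which 64416 had a peak in at least 2 libraries and were tested, and 8124 had one in all 6. A peak was seen at both times in 60298 merged sites, only at 24 h in 30110 and only at 48 h in 6504. Most of these one-time sites came from single libraries: 26164 of the 30110 were seen in 1 library at 24 h, and 6332 of the 6504 in 1 library at 48 h. Of the 29225 sites with a peak in 3 of 3 libraries at 24 h, library A at 48 h kept 96.9%, library C 76.1% and library B 29.1%. What was kept depended on how strong the site was at 24 h. In the weakest quintile, with a mean fold enrichment of 1.51 to 5.90 at 24 h, the 3 libraries kept 91.7%, 11.3% and 55.5% (A, B and C). In the strongest quintile, from 9.66 upward, they kept 99.7%, 62.6% and 94.6%. Fold enrichment is the fragment pileup at the summit plus 1 over the local background plus 1.

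**Figure D2:**
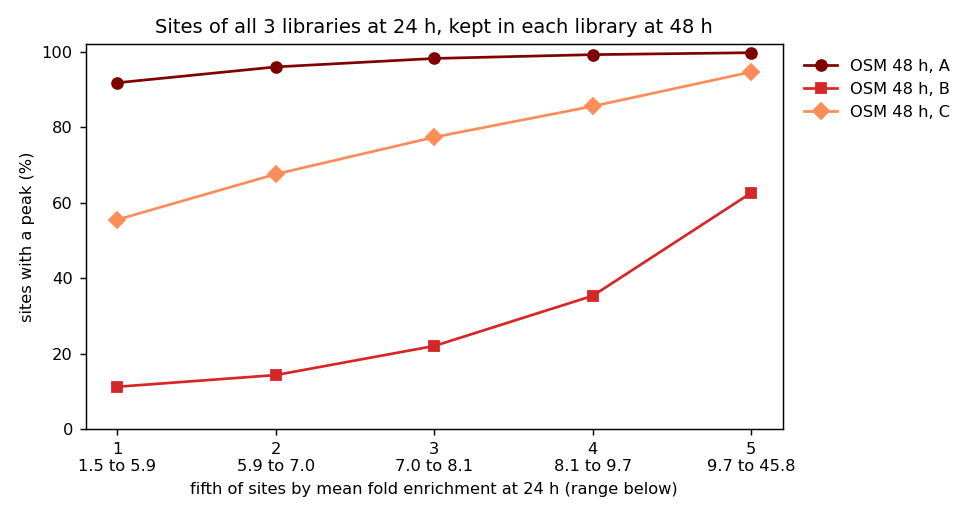
Share of sites with a peak in all 3 OSM libraries at 24 h that had a peak in each library at 48 h, in percent, by quintile of the mean fold enrichment at 24 h. Library A is at 91.7% or above throughout, and library B rises from 11.3% to 62.6%.

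Detection was therefore adjusted for peak number. Sites were classed by how many of the 6 libraries hold them, and the share of its class that a library detects was subtracted from 1 or 0, so that 0 is the usual rate for that library and class. No site was called at 48 h against 24 h, higher or lower (0 of 64416, 0%, limma with Benjamini-Hochberg adjustment, lowest adjusted p = 0.610). At an unadjusted p under 0.05 there were 53 sites, all higher at 48 h. The lowest p of any pattern of peaks seen over the 6 libraries was 0.0135, for a peak in all 3 libraries at 48 h and none at 24 h, and the reverse gave 0.0738. The second is above the threshold before any adjustment, and the first could pass one over 64416 sites only if a large share of all sites reached it, so the count of 0 was set by the design and does not show that sites did not differ. Sites with a peak in 3 of 3 libraries at 24 h and 0 of 3 at 48 h numbered 599 (0.93% of sites tested), and the reverse pattern 5 (0.00776%). Both numbers turned on single libraries: they were 625 and 78 without library B at 48 h, 6796 and 86 without A, 697 and 18 without C, and 671 and 38, 1701 and 21 and 2788 and 26 without A, B and C at 24 h. The adjusted difference was -0.74 ± 0.32 for the 599 and 1.26 ± 0.32 for the 5 (SE, limma, adjusted p = 0.610 for both). Raw detection called exactly these 604 sites, since it has no spread within either time. The change from 24 h to 48 h under OSM was also set against the change under PBS. No site was called (0 of 64416, limma, lowest adjusted p = 0.603). At an unadjusted p under 0.05 there were 1399 sites, 820 of them higher and 579 lower. Whether any pattern of peaks could pass in this contrast is not given here. The count of 0 therefore does not show that sites did not differ from PBS in their change, and raw detection did call sites here (closing section).

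The 599 sites seen only at 24 h were weak and distal. All 4 CTRL libraries had a peak at 492 of them (82.1%), near the 83.3% of all sites tested and below the 96.7% of sites with a peak in 3 of 3 libraries at 24 h. Just 13 had no peak in any CTRL library. In PBS at 48 h, libraries A, B and C had a peak at 12.2%, 12.7% and 1.17% of the 599, against 57.3%, 56.7% and 20.5% of all sites tested. The share was below that of all sites in PBS at 24 h already. There it was 58.6%, 13.2% and 8.85% of the 599 in A, B and C, against 86.3%, 52.8% and 46.4%. Their median fold enrichment was 5.69, against 6.63 over all sites tested and 8.42 over the sites of all 6 libraries. Only 30 (5.01%) lay within 1000 bp of a protein-coding start, against 19% of all sites tested, and the median distance was 46913 bp. The AP-1 letters stood within 100 bp of the summit in 269 of them (44.9%), against 31.6% of all sites tested and 24.6% of the sites of all 6 libraries. Among the 11886 sites with a peak in any 3 of the 6 libraries, the nearest class, the AP-1 letters stood in 34.8%, and 12.2% lay within 1000 bp of a start. The STAT letters stood in 48 (8.01%), close to the 7.69% of all sites tested.

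The strongest of these 24 h sites lay 87675 bp from the start of LRP1B, a lipoprotein receptor of the LDL receptor family, at chr2:142218504-142218794. Its fold enrichment was 12.4, 10.7 and 11.2 at 24 h, with no peak at 48 h, and all 4 CTRL libraries had a peak there. The next lay 25338 bp from the start of PSMD6, a proteasome subunit, with 15.9, 11.6 and 7.28 at 24 h. A site in an intron of ERP44, which retains proteins in the early secretory pathway, read 14.2, 9.65 and 9.31 at 24 h and held the STAT letters, and 1 CTRL library had a peak there. The other 7 of the 10 strongest lay in introns of DTNBP1, SLC44A5 and FAM81B and nearest to MAN1A1, CST9L, CCR4 and SORCS1, and each had a peak in at least 3 CTRL libraries.

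The 5 sites seen only at 48 h were weaker still. The strongest, at chr5:48239167-48239627 and 2189211 bp from the nearest start (EMB), read 4.87, 5.11 and 6.22 at 48 h. A second on chromosome 5 (nearest EMB, 1023696 bp) read 4.48, 4.47 and 4.52, and one on chromosome 19 (nearest ZNF254, 1222525 bp) read 4.38, 5.85 and 4.57. The site nearest to DIP2C read 3.57, 3.63 and 4.79. The site nearest to PLCXD1, at chrX:271425-271693, read 3.99, 3.64 and 3.85. Of the 5, 3 lay beyond 1 Mb of any protein-coding start, as did 1926 of the 64416 sites tested (2.99%).

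A second way to set peak number aside kept the 11188 strongest peaks of each library, a number set by library B at 48 h. Of the 13606 sites then tested, 266 were held by all libraries at 24 h and none at 48 h (1.96%), and 125 by all at 48 h and none at 24 h (0.919%). Held means among these strongest peaks. A site not held may still have a weaker peak, so these patterns show rank and not presence. On the full lists, 5 sites had a peak in 3 of 3 libraries at 48 h and 0 of 3 at 24 h. Limma called the 266 and the 125, since such patterns have no spread within a time. The AP-1 letters stood in 125 of the 266 sites of 24 h (47.0%) and in 28 of the 125 sites of 48 h (22.4%), against 29.4% of the sites tested. The letters of C/EBP factors (TTGCNCAA), which act in acute phase and inflammatory genes, went the other way, with 7 of 266 (2.63%) and 15 of 125 (12%), against 5.20%. The STAT letters stood in 14 of 266 (5.26%) and 10 of 125 (8%), against 7.97%. RUNX letters stood in 10.5% of the sites of 24 h and 7.20% of those of 48 h, against 6.20%.

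At the 8124 sites of all 6 libraries, the height of the peak was compared instead, as log2 fold enrichment after quantile normalisation. No site was called (0 of 8124, 0%, limma, lowest adjusted p = 0.988), with 293 at an unadjusted p under 0.05, 130 higher and 163 lower at 48 h. The largest rises and falls by p are given with their values, and none passed the test. A site in an intron of RGL1, an exchange factor for Ral GTPases, at chr1:183753458-183753877, read 9.07, 4.65 and 3.74 at 24 h and 13, 7.00 and 9.06 at 48 h. Its fitted difference was 1.09 ± 0.20 on the log2 scale (SE, limma, adjusted p = 0.988), and the raw ranges overlapped. A site nearest to PPIAL4D, at chr1:145271329-145271673, read 22.1, 13.5 and 11.9 at 24 h and 8.58, 4.86 and 8.18 at 48 h, a difference of -0.95 ± 0.21 (SE, limma, adjusted p = 0.988). In introns of TSPAN5, a tetraspanin, and of DLGAP1 and CNIH3 the fitted differences were -0.73, -0.77 and -0.82. The site 56214 bp from the start of DUSP1, a phosphatase that switches off MAP kinases, read 11.2, 8.39 and 8.22 at 24 h and 6.95, 3.97 and 4.19 at 48 h. The groups did not overlap there, at PPIAL4D or in DLGAP1. The other 4 sites with the largest rises by p, nearest to FOXL3, SPIDR, BAALC and ARMC5, had fitted differences of 0.65 to 0.94.

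The openings by 24 h had peaks under OSM and none in CTRL or in PBS at 24 h, and 8 of them had a peak in PBS at 48 h. Of the 55, 15 were lasting, 31 had a peak in 1 library at 48 h, and 9 were transient. Late openings, with a peak in all 3 libraries at 48 h and none at 24 h, in CTRL or in PBS at 48 h, numbered 1 of 8427 (0.0119%), the site nearest to PLCXD1, where 1 of 3 PBS libraries at 24 h had a peak. Library A at 48 h kept 37 of the 55 openings (67.3%), library C 19 (34.5%) and library B 8 (14.5%). These shares rank the libraries as their peak numbers do, and the part of peak number in the classes was not tested. The openings were weak, with 38 of the 55 in the weakest quintile of the sites of 3 of 3 libraries at 24 h and 12 in the next. The classes turned on single libraries. Without library B at 48 h the 55 openings divided into 13 with a peak in both other libraries, 30 in 1 and 12 in none. Without library A at 48 h there were 5 lasting, 33 transient and 22 late openings, and without library C at 48 h 3 lasting, 14 transient and 3 late. Without library A, B or C at 24 h the openings numbered 104, 157 and 256, of which 31, 60 and 120 were transient. On the strongest 11188 peaks of each library, CTRL and PBS libraries included, 193 sites met the opening rule. Of these, 107 were lasting, 37 had a peak in 1 library and 49 were transient, and 31 sites met the late rule. These are openings by rank, since a CTRL or PBS library may have a weaker peak there. On the full lists, 122 of the 29225 sites with a peak in 3 of 3 libraries at 24 h had no CTRL peak.

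**Figure D3:**
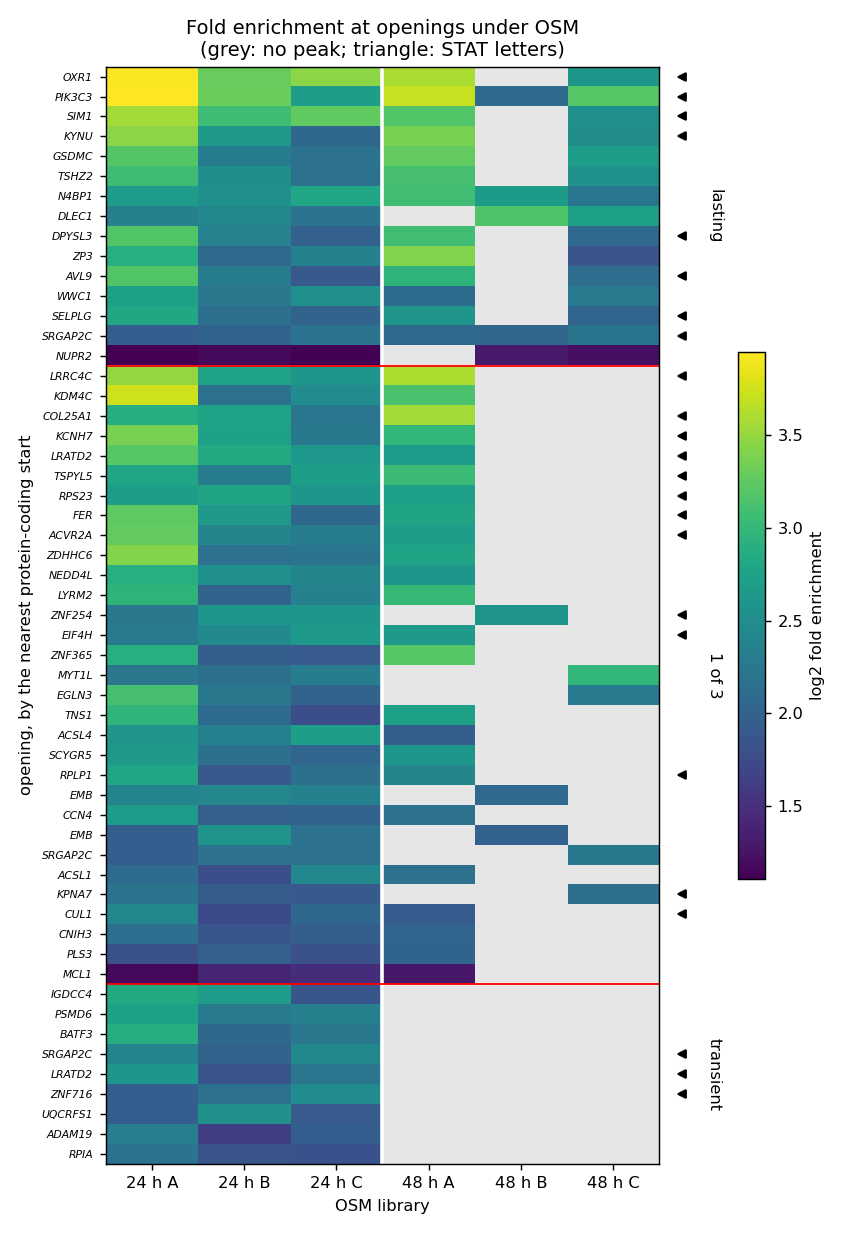
Log2 fold enrichment of the 55 openings by 24 h (rows, named by the nearest protein-coding start) in the 6 OSM libraries (columns); grey marks no peak and triangles mark the STAT letters within 100 bp of the summit. Library A at 48 h holds 37 of the openings, library C 19 and library B 8.

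None of the 55 lay within 1000 bp of a protein-coding start, where 28.6% of all sites of 3 of 3 libraries at 24 h lay, and 34 were intergenic and 21 intronic. With chained summits 45 of 509 openings lay there, against 13797 of 67394 sites tested. On the strongest peaks 8 of 193 did, against 4326 of 13606. The STAT letters stood within 100 bp of the summit in 24 of the 55 (43.6%), against 4955 of all 64416 sites tested (7.69%). They stood in 8 of 15 lasting openings (53.3%), 13 of 31 with a peak in 1 library at 48 h (41.9%) and 3 of 9 transient ones (33.3%). This order of the classes did not hold throughout. Without library C at 48 h the letters stood in 1 of 3 lasting and 5 of 14 transient openings (35.7%), and without library A at 48 h in 2 of 5 and 13 of 33 (39.4%). With 1 control library allowed they stood in 12 of 43 lasting (27.9%) and 7 of 22 transient openings (31.8%), and with PBS left aside in 38.5% of each. The AP-1 letters stood in 11 of the 55 (20.0%) against 31.6% of sites tested, but in 162 of 509 (31.8%, against 30.8%) with chained summits and 61 of 193 (31.6%, against 29.4%) on the strongest peaks. The share of STAT letters among openings by 24 h stayed above that of the sites tested under each other definition of a site or an opening that was run. It was lowest, 72 of 509 (14.1%, against 7.58%), when summits within 250 bp were chained into sites. On the strongest peaks of each library, openings are by rank, and controls may hold weaker peaks there. In that setting the letters stood in 24 of 107 lasting openings (22.4%) and 3 of 49 transient ones (6.12%), against 7.97%.

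**Figure D4:**
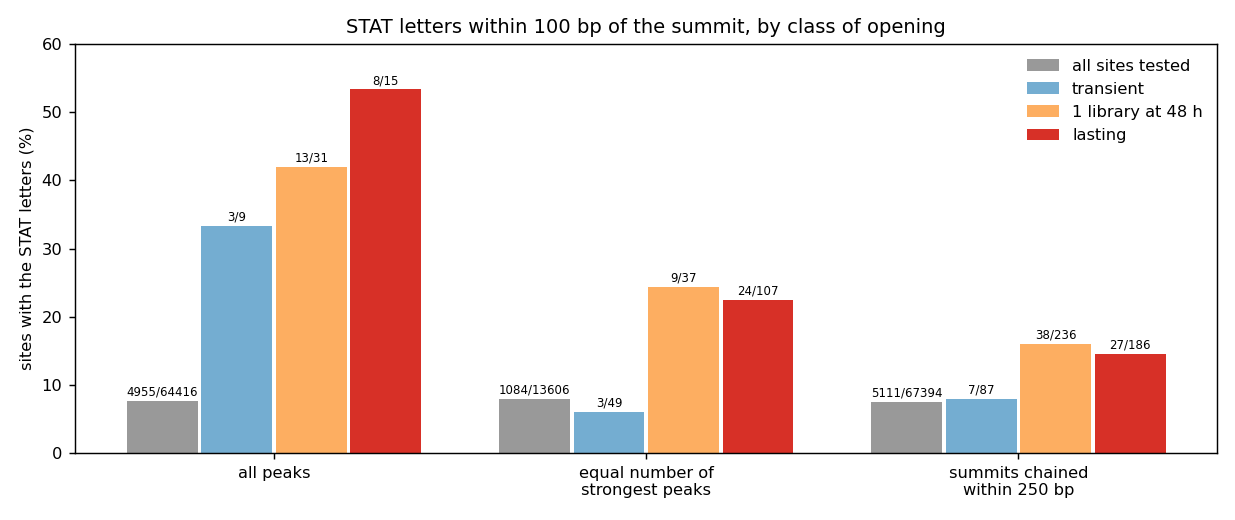
Share of sites with the STAT letters within 100 bp of the summit, in percent, for all sites tested and for openings that were transient, had a peak in 1 library at 48 h or were lasting, under 3 ways of making sites; numbers are sites with the letters over sites. With all peaks, the share is 7.69% of sites tested and 53.3% of lasting openings. With an equal number of strongest peaks, a control library may still have a weaker peak at an opening.

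Some openings shared sequence. Among the 1485 pairs of openings, each compared over 100 bases to either side of the summit, 27 pairs aligned over at least 80 bases at an identity of at least 70%. Of these, 25 pairs joined 8 openings into 1 family, with identities of 74.2% to 98.5%. Its members were nearest to ZNF254, EMB (2 openings), SRGAP2C (3 openings), ZNF716 and UQCRFS1, and reads from such copies may be placed on any of them, so their positions are uncertain. The family held 3 of the 9 transient, 1 of the 15 lasting and 4 of the other openings. All 8 had a peak in at least 1 library outside OSM, and 5 had one in PBS at 48 h. Outside the family, 20 of 47 openings held the STAT letters (42.6%): 7 of 14 lasting, 12 of 27 with 1 library at 48 h and 1 of 6 transient. Outside the family, the openings nearest to PIK3C3 and KCNH7 were alike at 78.2% of 174 aligned columns, and both held the STAT letters.

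Among the lasting openings, the strongest lay on chromosome 8 in an intron of OXR1, which protects cells against oxidative damage. It read 15.3, 9.79 and 11.0 at 24 h and 12.1 and 6.10 in libraries A and C at 48 h, with no peak in library B. The opening nearest to PIK3C3, at chr18:40167788-40168344 and 1787092 bp from that start, was 1 of 3 lasting openings with a peak in all 6 libraries. Its values were 15.5, 9.85 and 6.51 at 24 h and 13.1, 4.24 and 9.20 at 48 h, and the fitted log2 difference was -0.06 ± 0.23 (SE, limma, adjusted p = 0.998). Neither of these had a peak in any of the 36 libraries outside OSM, and both held the STAT letters. Most openings did have a peak outside OSM. Those without one were 14 of the 55 openings and 3 of the 15 lasting.

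The opening nearest to SIM1, at chr6:100230980-100231280, read 11.8, 8.39 and 9.57 at 24 h and 9.08 and 5.81 in A and C at 48 h. The opening 234728 bp from KYNU, an enzyme of tryptophan breakdown in the kynurenine pathway, read 11.0, 6.27 and 4.19 at 24 h and 10.3 and 5.69 in A and C at 48 h. It too had no peak outside OSM and held the STAT letters. In an intron of TSHZ2 the values were 8.32, 5.74 and 4.48 at 24 h and 8.68 and 5.86 in A and C at 48 h. On chromosome 8, the opening nearest to GSDMC read 9.16, 4.97 and 4.49 and then 9.65 and 6.43 in A and C. Of these 6 strongest lasting openings, library B at 48 h held only the one nearest to PIK3C3. The other 2 seen in all 6 libraries were in an intron of N4BP1 (6.36, 5.79 and 6.85, then 8.48, 6.31 and 4.65) and nearest to SRGAP2C.

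Among the transient openings, the strongest lay in an intron of IGDCC4, at chr15:65409379-65409773, and read 7.13, 6.42 and 3.65 at 24 h. The opening 32818 bp from PSMD6, at chr3:64056605-64057117, read 6.63, 4.86 and 5.09. The opening 12728 bp from BATF3, an AP-1 family factor of immune cells, at chr1:212712481-212712820, read 7.35, 4.19 and 4.74. All of these had no peak in any OSM library at 48 h. Their mean values at 24 h lay within the weakest quintile, of which libraries A, B and C at 48 h kept 91.7%, 11.3% and 55.5%. The part of peak strength in their absence at 48 h was not tested. The one on chromosome 8 nearest to LRATD2 read 6.05, 3.58 and 4.65. Those nearest to SRGAP2C (5.18, 4.03 and 5.39) and ZNF716 (3.89, 4.48 and 5.58) belonged to the similar-sequence family. In limma fitted over all 13 groups and 42 libraries, 3 sites were called lower at 48 h, with a difference of -0.92 and an adjusted p of 0.000681. These were the transient openings nearest to PSMD6, in an intron of ADAM19, a membrane metalloprotease, and on chromosome 8 nearest to LRATD2. Outside the 3 libraries of OSM at 24 h none of the other 39 libraries had a peak there, a pattern without spread in any group.

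Openings were also looked up in the other treatments. IFNG with EGF had a peak in at least 2 of 3 libraries at 13 of the 55 at 24 h and at 11 at 48 h. For HGF these numbers were 1 and 1 of 3 libraries, and for TGFB with EGF 4 and 3. For EGF alone, at least 2 of 4 libraries had a peak at 3 and 1. Of the 24 openings with the STAT letters, IFNG with EGF held 7 at 24 h and 8 at 48 h, and of the 31 without them 6 and 3. The openings nearest to SIM1, SELPLG and COL25A1 were among those with a peak in at least 2 IFNG with EGF libraries at both times. In PBS at 48 h, 47 of the 55 had no peak in any library. The libraries of these groups differ in peak number, and the part of this in the counts was not tested.

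At 5 genes of the OSM pathway, the strongest promoter site had a peak in at least 2 of 3 libraries at each time. The OSMR promoter (chr5:38845513-38846648) read 14.1, 9.15 and 9.36 at 24 h and 11.2, 4.53 and 6.45 at 48 h, a log2 difference of -0.35 ± 0.17 (SE, limma, adjusted p = 0.988). IL6ST read 13.6, 10.5 and 9.27 and then 11.6, 5.66 and 7.13, a difference of -0.20 ± 0.16. STAT3, the transcription factor itself, read 12, 9.78 and 9.22 and then 11.3, 6.37 and 9.37, a difference of 0.07 ± 0.18. The ranges overlapped at all 3.

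JAK1, the kinase of the receptor complex, read 14.8, 10.4 and 7.75 at 24 h and 12.1 and 5.56 in A and C at 48 h, with no peak in library B. SOCS3, the feedback inhibitor, read 7.45, 6.31 and 5.89 at 24 h and 6.69 and 4.06 in A and C at 48 h, again with none in B. All 4 CTRL libraries had a peak at each of these 5 sites. A site 17070 bp from the start of IL6ST (chr5:56011928-56012509) had 7.04, 3.74 and 3.63 at 24 h and no peak at 48 h, and all 4 CTRL libraries had a peak there too.

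Sites within 50 kb of the starts of genes in 11 lists were counted in the same way. Near the 20 genes of OSM receptor and JAK-STAT signalling, 1 of 116 sites was seen only at 24 h, the one beside IL6ST, and none only at 48 h. Near the 20 genes of the STAT3 response the count was 0 of 139 sites in either direction. The lists of AP-1 and immediate early genes and of acute phase, complement and coagulation genes had 3 of 162 (1.85%) and 2 of 125 (1.60%) only at 24 h, near FOSL2, BATF3 and DUSP5 and near C1S and PLAUR. Squamous differentiation (near CSTA) and proteases and matrix remodelling (near ERAP2) had 1 each. NF-kB and chemokine, adhesion, junction and basal epithelial, hypoxia and glycolysis, interferon response and cell cycle genes had 0. The background over all sites tested is 0.93%, and each list's share rests on 3 sites or fewer. No site of any list was called by peak height or by adjusted detection. Averaging adjusted detection over the sites of a list gave 1 value per library, and for 10 of the 11 lists these values overlapped between the times. For NF-kB and chemokine genes the value was 0.019, 0.044 and 0.005 at 24 h and -0.001, -0.005 and -0.063 at 48 h, over 99 sites. It overlapped within 10 kb or with raw detection.

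Openings fell within 50 kb of the starts of 3 list genes. MCL1, which protects cells from apoptosis and is listed under the STAT3 response, had one 7497 bp from its start, with 2.25, 2.65 and 2.78 at 24 h and 2.42 in library A at 48 h. EGLN3, an oxygen-sensing hydroxylase, had one in an intron with 8.67, 4.74 and 4.02 at 24 h and 4.86 in library C at 48 h. The third is the transient opening near BATF3. None of these openings held the STAT letters within 100 bp of the summit. The MCL1 opening was 1 of 139 sites near the STAT3 response genes. The EGLN3 opening was 1 of 127 sites near hypoxia and glycolysis genes. The BATF3 opening was 1 of 162 sites near AP-1 and immediate early genes. Over all sites tested, openings were 55 of 64416.

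For 18 motifs, the sites with the motif that a library detected were counted and set against the count its rates of detection would give. The excess or deficit in percent is called the deviation, and no test was run on it. The AP-1 deviation was 1.63, 2.85 and 2.53 at 24 h and 0.17, -14.1 and -7.41 at 48 h, and the times did not overlap. RUNX (1.18, 5.09 and -0.39, then -0.65, -11.2 and -4.97) and ETS (1.39, 1.68 and 0.85, then -0.34, -12.5 and -1.52) did not overlap either, and the other 15 did. PBS cells gave the same order for AP-1 on these sites, with 2.31, 5.65 and -1.26 at 24 h and -2.23, -2.62 and -11.8 at 48 h. The lowest AP-1 values, in library B under OSM and C under PBS at 48 h, were those of the libraries with the fewest peaks. The part of peak number was not tested. RUNX did not overlap in PBS either (1.94, 7.42 and -0.89, then -3.95, -2.77 and -9.62), and ETS did. The STAT deviation was -7.28, 0.36 and 5.68 at 24 h and -8.44, 48.4 and 9.44 at 48 h. Between the times it differed by 16.9 points with library B at 48 h and 0.91 without it, and AP-1 by -9.46 and -5.98.

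The high STAT value of library B at 48 h moved with sites far from genes. It was not the highest of this library, whose IRF deviation was 73.0, and the PBS library with the fewest peaks, C at 48 h, had 37.4 for STAT and 49.9 for IRF. Sites beyond 1 Mb of a coding start made up 11.2% of the tested sites this library detected, and 1.72% to 4.08% in the other 5. The STAT letters stood in 36.8% of such sites, against 6.79% of the rest. No filter for repeated sequence was applied, and whether sites beyond 1 Mb are repeats or regulatory sites was not tested. On the sites within 1 Mb, a choice made after the values were seen, the STAT deviation was -0.84, 0.88 and 0.66 at 24 h and -1.28, 5.71 and 0.82 at 48 h. AP-1 still did not overlap (0.50, 2.79 and 3.47, then -1.17, -4.85 and -5.86). C/EBP, at 0.24, -4.94 and -5.77 at 24 h and 3.79, 1.60 and 5.03 at 48 h, then lay higher at 48 h without overlap. In PBS on the same sites AP-1 again did not overlap (-5.19 at 48 h against 24 h), and C/EBP did (0.53). RUNX and ETS did not overlap on these sites under OSM or under PBS. For ETS in PBS the values were 0.72, 0.02 and 1.07 at 24 h and -0.08, -1.36 and -1.82 at 48 h.

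**Figure D5:**
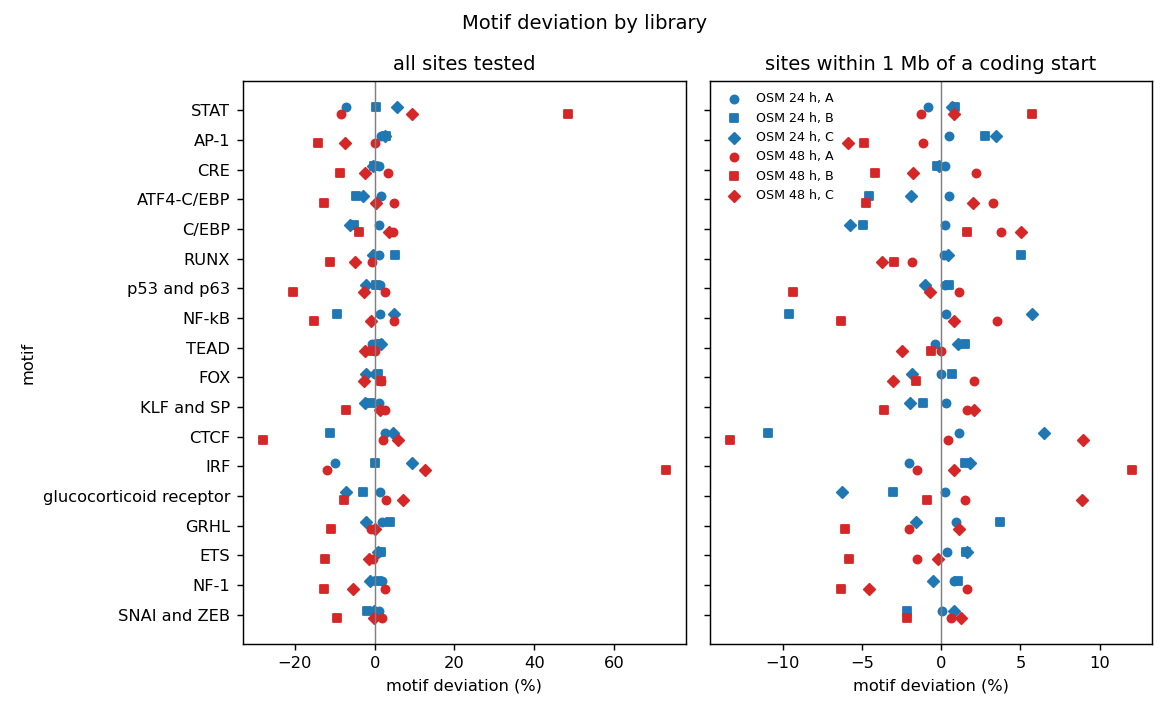
Motif deviation in percent for 18 motifs in each OSM library, over all sites tested (left) and over sites within 1 Mb of a coding start (right); blue is 24 h and red is 48 h, and the 2 panels have different scales. AP-1 lies lower at 48 h in both panels, and the STAT value of library B at 48 h is 48.4 in the left panel and 5.71 in the right.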

How the data were processed

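ATAC-seq libraries (Omni-ATAC protocol) were sequenced, trimmed with Trimmomatic 0.36.5 and aligned to hg38 with Bowtie2 2.3.4.1 by the authors, and duplicates were removed with Picard. Peaks were called per library with MACS2, without a control and without pooling. The deposited ratio is fold enrichment at the summit, the deposited -log10 values are p and q, the deposited score is 10 times the -log10 q as a whole number, and the other deposited columns are positions. The study set aside libraries with a low share of reads in peaks; which ones is not given in the sources used here, so all were used, and OSM 48 h B, with the fewest peaks of the 6, may be among them.

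Peaks on 23 chromosomes were merged at an overlap of 1 bp, and no filter for repeated sequence was applied. Sites with a peak in at least 2 of the 6 libraries were fitted with limma 3.58.1 in R 4.3.3 and called at an adjusted p below 0.05, for detection also a difference of at least 0.5, and library values by exact permutation. The fits, that against PBS included, were tested on simulated data, and the outcome is not given here. Sites were annotated with GENCODE release 44, and motifs were searched on both strands within 100 bp of the summit; besides those spelled out in the text, the letters were CRE TGACGTCA, ATF4-C/EBP TGATGCAA, RUNX TGTGGTT, TEAD ACATTCC, FOX TGTTTAC, KLF and SP GGGCGGG, GRHL AACCGGTT, ETS CAGGAAG, and SNAI and ZEB CAGGTG, with longer or gapped patterns for p53 and p63, NF-kB, CTCF, IRF, the glucocorticoid receptor and NF-1.

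Named sites were the 10 strongest seen at 1 time only in each direction, the 5 of lowest p by height in each direction, the 6 strongest transient and lasting openings and the late one, sites near signalling genes, and 5 promoters; others were named after their values were seen. Members and lists were chosen with earlier results of these data known. The replicates are biological per the methods, and p-values measure the spread between these libraries; replicate letters did not pair libraries. Alternatives are given in the closing section.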

Additional observations from a re-analysis of the deposited data

How the results depend on the processing

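In the test of adjusted detection no pattern of peaks in 6 libraries could pass alone, so its 0 calls say nothing about stability. The alternatives with calls were raw detection (5 higher, 599 lower), the equal number of strongest peaks (125 higher, 266 lower) and the fits over all 13 groups, with and without lane (0 higher, 3 lower in each). Calls by peak height stayed at 0 throughout. Beyond PBS, raw detection gave 46 higher and 230 lower, and the others 0. Leaving out 1 library gave 0 calls in each. The fit with the replicate letter as a block (replicate block) gave 0 calls in each, and same-letter deviations correlated at 0.35, 0.17 and -0.08 by detection and 0.51, 0.10 and 0.14 by height, so the letters were not taken as pairs.

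The opening counts (opened, transient, 1 library, lasting, late) moved most, from 55, 9, 31, 15 and 1. Chained summits gave 509, 87, 236, 186 and 4, the strongest peaks 193, 49, 37, 107 and 31, 1 control library allowed 130, 22, 65, 43 and 4, and PBS left aside 122, 13, 44, 65 and 3. Openings on the strongest peaks are by rank, as control libraries may hold weaker peaks there. Stricter peaks gave 0 late openings. Of 2 settings chosen after the data were seen, sites within 1 Mb of a coding start left 5 transient openings, and leaving out the similar-sequence family left 47 openings, 6 transient, 27 with 1 library and 14 lasting. Leaving out 1 library gave 55 to 256, 12 to 120, 17 to 108, 3 to 28 and 1 to 22. Without library C at 24 h there were 256 openings, 120 of them transient, and without library C at 48 h 3 lasting openings; without library A at 48 h there were 33 transient, 5 lasting and 22 late. The cause was not tested.

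Leaving out 1 library, the differences at 48 h ran from -0.49 to -0.07 for log10 peak number, 1.31 to 6.39 percentage points for promoter share, -53.3 to 17.2 bp for median width (reversed without library B at 48 h, 17.2) and -0.0641 to 0.0898 for background coverage. For the last, the sign turned without library C at 24 h (-0.0411), B at 48 h (-0.0641) and C at 48 h (-0.0252). Motifs without overlap numbered 3, and 2 to 8 with a library left out; lists numbered 1, 0 within 10 kb or with raw detection, and 1 to 3 with a library left out. With no read counts, a site without a peak cannot be told from a site too shallow to be called.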
